A study of Homo sapiens with 6 samples.

Results

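Drug efflux transporters of the ATP-binding cassette (ABC) family were examined in SW780 cells with and without RC48. The 8 genes were taken by name from the 16390 genes listed in the data, namely ABCB1, ABCC1, ABCC2, ABCC3, ABCC4, ABCC5, ABCC10 and ABCG2, and all 8 had enough counts to be tested. SW780 is an established human bladder cancer cell line of the luminal type. RC48 (disitamab vedotin) is an antibody against ERBB2 that carries the microtubule poison monomethyl auristatin E (MMAE). Total RNA of 3 Control libraries of SW780 and of 3 libraries of SW780 exposed to RC48 was sequenced, with no other agent or allele named for either group. The study's methods give a single RC48 concentration for these cells, and the exposure time is not given in the sources used here. Nothing in the labels says that the 3 libraries of a group came from separate cultures, so the p-values measure only the spread between these libraries, which may be technical. All 6 libraries came from 1 cell line.

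ABC exporters use the energy of ATP to move substrates out of the cell across the plasma membrane. ABCB1 (P-glycoprotein) is the classic multidrug transporter, and MMAE is among its known substrates. The ABCC members (multidrug resistance proteins) mostly export organic anions and conjugates with glutathione or glucuronic acid, and ABCG2 (breast cancer resistance protein) works as a dimer on substrates that include topoisomerase inhibitors. Once the linker of RC48 has been cut in the lysosome, free MMAE can be pumped out by such exporters, and the comparison asks whether their transcripts differed between RC48-exposed and Control cells.

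Estimated counts summed to between 16453233 and 17988030 per library. The RC48 libraries differed among themselves with the GC content of the genes. Across 13000 genes, the log2 ratio to the Control mean rose with GC content in RC48 replicate 1 (Spearman rho = 0.74) and in RC48 replicate 3 (rho = 0.58), but not in RC48 replicate 2 (rho = -0.021). RC48 replicate 1 stood farthest apart, with a median log2 ratio of -1.0 in the decile of genes with the lowest GC content and 0.67 in the decile with the highest. Summed markers of urothelial epithelium were between 11608 and 13443 CPM (counts scaled to the library's total after TMM normalization) in Control and between 13426 and 17832 CPM in RC48. The 12 leukocyte markers summed to at most 39.3 CPM in Control and at most 81.1 CPM in RC48, and PTPRC, which defines leukocytes, was at 0 in all Control libraries and at no more than 0.06 CPM in RC48. None of the 8 transporters is a marker on these lists, and the part of the markers in the results was not tested.

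The transporters differ in base composition, which is shown here beside the GC trend described above. The first 120 coding bases, taken from the longest GENCODE v29 transcript of each gene on hg38, are shown for the members whose estimates lay farthest below and above 0 (ABCG2 and ABCC10) and for ABCB1 as the MMAE exporter. Capitals mark G and C.
ABCG2: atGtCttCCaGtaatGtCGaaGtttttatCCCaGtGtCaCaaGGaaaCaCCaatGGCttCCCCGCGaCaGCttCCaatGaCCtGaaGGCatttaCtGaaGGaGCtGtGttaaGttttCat
ABCB1: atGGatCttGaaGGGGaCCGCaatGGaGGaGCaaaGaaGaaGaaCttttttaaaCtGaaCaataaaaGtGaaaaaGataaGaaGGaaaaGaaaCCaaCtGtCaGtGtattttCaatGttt
ABCC10: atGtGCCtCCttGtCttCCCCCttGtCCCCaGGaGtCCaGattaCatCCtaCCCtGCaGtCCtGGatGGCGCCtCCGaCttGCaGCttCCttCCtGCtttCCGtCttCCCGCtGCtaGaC
G and C made up 44.2% of the window in ABCG2, 34.2% in ABCB1 and 58.3% in ABCC10. Over the whole transcript, GC content was 41.2% in ABCG2, 43.1% in ABCB1, 43.2% in ABCC4, 44.9% in ABCC2, 50.8% in ABCC5, 54.9% in ABCC1, 55.8% in ABCC3 and 58.7% in ABCC10.

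All 8 transporters were expressed in SW780, at very different levels. In TPM, a unit that scales counts for gene length and depth and thus allows comparison between genes, the order in every Control library was ABCC1, ABCC5, ABCC3, ABCC4, ABCC10, ABCG2, ABCB1 and ABCC2. ABCC1, an exporter of glutathione conjugates and leukotriene C4, was at 70.5, 68.4 and 88.2 TPM in the 3 Control libraries. ABCC2, an exporter of conjugates at the apical membrane, was at 1.59, 1.63 and 1.92 TPM. ABCC1 thus took 36.0% to 36.5% of the summed TPM of the 8 genes in Control and 33.0% to 35% in RC48, whereas ABCB1 took 1.60% to 1.85% and 1.19% to 2.02%. The summed TPM was 193.1, 189.8 and 244.8 in Control and 205.6, 181.7 and 183.9 in RC48, so these sums overlapped between the groups.

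Most neighbours in this order were separated beyond the spread of the libraries. In Control, the only neighbours whose ranges overlapped were ABCC5, between 46.6 and 60.5 TPM, and ABCC3, between 35.5 and 47.8 TPM, although ABCC5 was the higher one in each library. RC48 replicate 2 had the Control order. In RC48 replicate 1, ABCC3 stood above ABCC5 (56.6 against 40.1 TPM) and ABCC10 above ABCC4 (22.0 against 9.58 TPM), and in RC48 replicate 3 ABCC10 also stood above ABCC4 (14.4 against 12.5 TPM). The genes that moved up in these libraries, ABCC3 and ABCC10, were the transporters with the highest GC content.

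**Figure D1:**
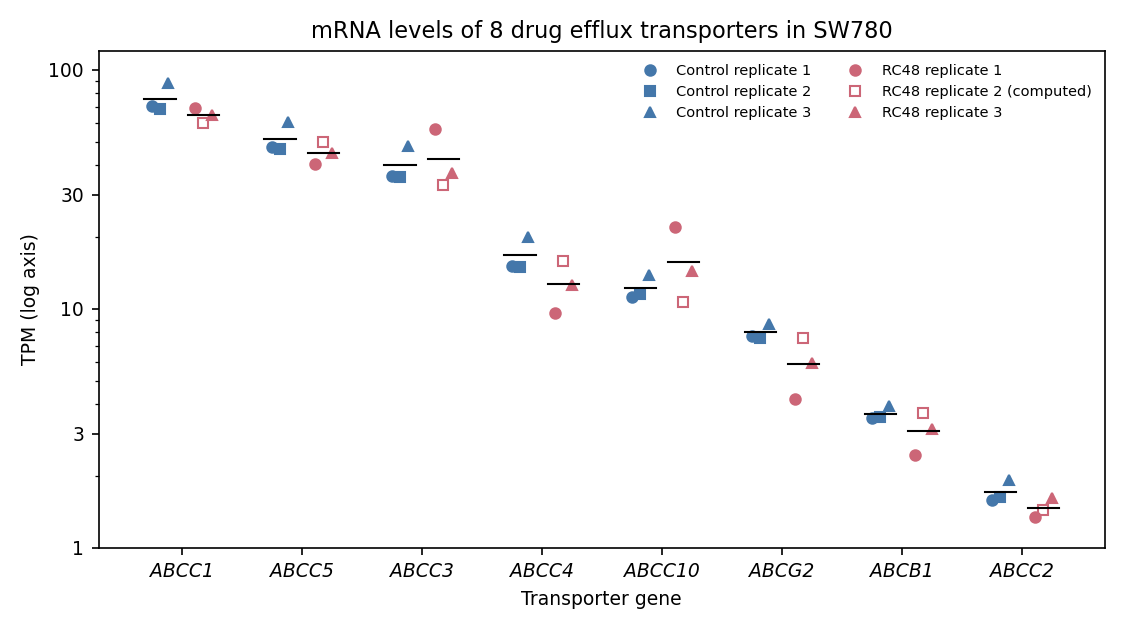
Level of each transporter in TPM (log axis) in the 3 Control and 3 RC48 libraries, 1 point per library. ABCC1 was highest and ABCC2 lowest in every library, and only ABCG2 had no overlap between the groups in CPM. TPM of RC48 replicate 2 was computed from its estimated counts.

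No transporter passed the test between RC48 and Control. Of the 8 genes, 0 had an adjusted p under 0.05 by edgeR (quasi-likelihood test, Benjamini-Hochberg over all genes), and 0 had an unadjusted p under 0.05, while 2.21% of the 13055 tested genes were called and 19.1% had an unadjusted p under 0.05. DESeq2, which called 4.78% of all genes, and limma on log2(TPM+1) also called 0 of the 8. Limma called 1.69% of all genes with 6 libraries and 21.6% with the 5 libraries of deposited TPM, which leave out RC48 replicate 2. The estimated log2 fold changes (RC48 over Control) lay between -0.37 and 0.44 with a median of -0.15, and 6 were below 0 and 2 above, beside a median of 0.016 over all tested genes. The 95% intervals lay within log2 fold changes of -0.78 and 1.07 for all 8 genes, and each included 0. Below, levels between groups are in CPM after normalization for library composition (TMM), which serves comparison between libraries but not between genes. This normalization does not remove the GC trend of RC48 replicates 1 and 3.

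**Figure D2:**
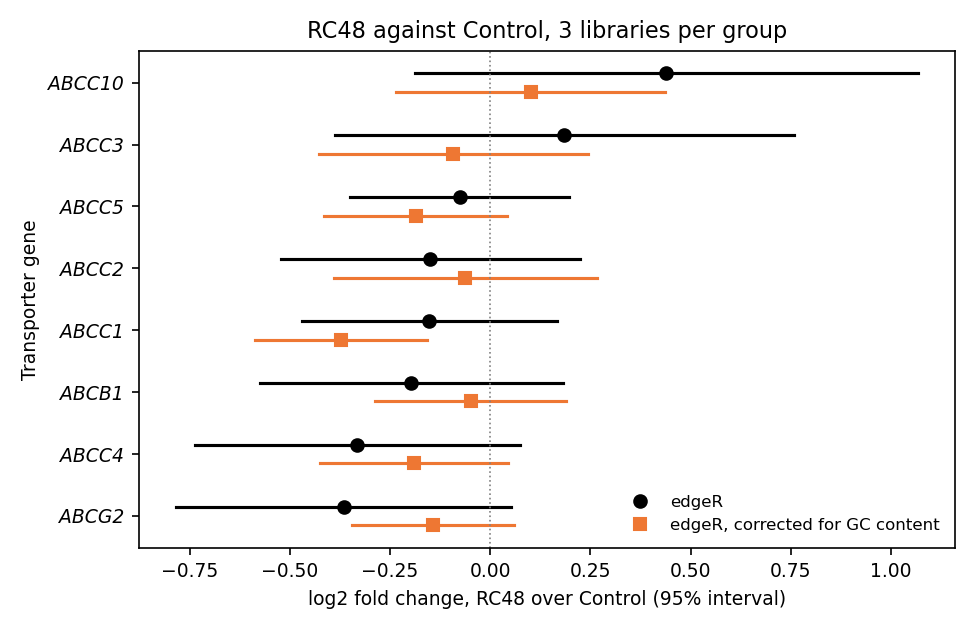
Log2 fold change (RC48 over Control) of each transporter with its 95% interval from edgeR, without and with a correction for GC content. Without the correction, every interval included 0. With it, the interval of ABCC1 lay below 0 (-0.59 to -0.16), but its adjusted p was 0.052.

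ABCB1 (NCBI gene 5243, chromosome 7, 87503017 to 87713295 on GRCh38.p14 as for all positions here) is the member that most directly concerns MMAE. Its level was 9.48, 9.67 and 9.42 CPM in Control and 6.92, 9.42 and 8.57 CPM in RC48. RC48 replicates 1 and 3 were lower than all Control libraries. RC48 replicate 2 lay only just within the Control range (9.419 against 9.4165 CPM in Control replicate 3), so the groups overlapped narrowly. The log2 fold change was -0.20 (SE 0.16, 95% interval -0.57 to 0.18, adjusted p = 0.45 by edgeR), and the interval corresponds to folds of 0.67 to 1.13. With the GC correction, the 3 RC48 libraries came to 8.37, 8.90 and 8.84 CPM, and the log2 fold change moved to -0.05 (adjusted p = 0.79). The depth behind the gene was modest, with 114 counts in RC48 replicate 1 (exact Poisson 95% interval 94.0 to 136.9, for counting error only).

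ABCG2 (gene 9429, chromosome 4, 88090264 to 88231626) had the lowest p-value of the 8. It was at 17.7, 17.5 and 18.4 CPM in Control and at 10.7, 16.8 and 14.1 CPM in RC48. All RC48 libraries were below all Control libraries, which held for no other transporter, beside 31.5% of all tested genes whose groups did not overlap (14.1% with RC48 lower and 17.4% with RC48 higher). The means were 17.9 ± 0.43 and 13.9 ± 3.02 CPM (SD, n = 3 each), and within RC48 replicate 1 was far lower than replicate 2. The log2 fold change was -0.37 (SE 0.18, 95% interval -0.78 to 0.05) with an unadjusted p of 0.078 and an adjusted p of 0.29 by edgeR. ABCG2 was called without RC48 replicate 2, with a log2 fold change of -0.53 and an adjusted p of 0.046 by edgeR, where 28.3% of all genes were called. It was also called by limma voom with sample quality weights (-0.33, adjusted p = 8.8e-04), which called 61.4% of all genes. With the GC correction, the log2 fold change was -0.14 (adjusted p = 0.33).

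ABCC10 (MRP7, gene 89845, chromosome 6, 43427541 to 43451994), which can export taxanes and vinca alkaloids, had the highest estimate. Control libraries held 29, 31.3 and 34.6 CPM, and RC48 libraries held 61.4, 27.6 and 39.7 CPM. RC48 replicate 1 was far above all other libraries, whereas RC48 replicate 2 was the lowest of the 6. Its log2 fold change was 0.44 (SE 0.27, 95% interval -0.19 to 1.07, adjusted p = 0.34 by edgeR). Without RC48 replicate 2 it was 0.67 with an adjusted p of 0.039, without RC48 replicate 1, where 6.82% of all genes were called, it was 0.08 with an adjusted p of 0.79, and with the GC correction it was 0.10 with an adjusted p of 0.69. Limma voom called it as well (0.38, adjusted p = 6.9e-04).

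ABCC3 (MRP3, gene 8714, chromosome 17, 50634881 to 50692253), a basolateral exporter of glucuronides and bile acids, had its extremes in the same libraries as ABCC10. Control was at 108.5, 108.8 and 132.6 CPM and RC48 at 188.1, 95.8 and 113.7 CPM. Again, RC48 replicate 1 was the highest of the 6 libraries and RC48 replicate 2 the lowest, but RC48 replicate 3 lay inside the Control range, unlike in ABCC10, where it was above it. The log2 fold change of 0.18 (SE 0.25, 95% interval -0.39 to 0.76, adjusted p = 0.63 by edgeR) changed sign without RC48 replicate 1 (-0.16) and with the GC correction (-0.09, adjusted p = 0.72).

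ABCC1 (MRP1, gene 4363, chromosome 16, 15949143 to 16143053) was the most abundant member and the only one whose 95% interval excluded 0 with the GC correction. It was at 256.8, 249.0 and 293.3 CPM in Control and at 271.7, 208.6 and 238.7 CPM in RC48, where RC48 replicate 1 lay inside the Control range. This gave a log2 fold change of -0.15 (SE 0.14, 95% interval -0.47 to 0.17, adjusted p = 0.48 by edgeR). After the GC correction, Control came to 275.2, 265.5 and 319.8 CPM and RC48 to 212.1, 224.9 and 227.6 CPM, so that all 3 RC48 libraries were below all 3 Control libraries. The same held for ABCG2 after the correction, and 33.1% of all tested genes had no overlap between corrected groups in either direction. The corrected log2 fold change was -0.37 (95% interval -0.59 to -0.16) with an unadjusted p of 0.0039 and an adjusted p of 0.052, which did not pass the threshold, while 7.25% of all tested genes did pass it with this correction.

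ABCC4 (MRP4, gene 10257, chromosome 13, 95019835 to 95301451) and ABCC5 (MRP5, gene 10057, chromosome 3, 183919934 to 184017884) both export cyclic nucleotides and nucleotide analogs. ABCC4 was at 48.5, 48.1 and 59.2 CPM in Control and at 33.3, 48.9 and 41.6 CPM in RC48. RC48 replicate 2 lay within the Control range and the other RC48 libraries below it. The log2 fold change of ABCC4 was -0.33 (SE 0.17, 95% interval -0.74 to 0.07, adjusted p = 0.30 by edgeR), and limma voom alone among the alternatives called it (-0.24, adjusted p = 0.0050). ABCC5 was at 123.5, 121.6 and 145.2 CPM in Control and at 124.3, 124.0 and 121.7 CPM in RC48. The RC48 libraries were close to each other and to the lower Control libraries, with Control replicate 3 above the rest. Its log2 fold change was -0.08 (SE 0.12, 95% interval -0.35 to 0.20, adjusted p = 0.68), the narrowest interval of the 8, and without Control replicate 3 it was 0.0078.

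ABCC2 (MRP2, gene 1244, chromosome 10, 99782640 to 99852594) was the least abundant member. Control was at 5.14, 5.27 and 5.65 CPM and RC48 at 4.67, 4.45 and 5.34 CPM, and RC48 replicate 3 overlapped the Control range. The log2 fold change was -0.15 (SE 0.16, 95% interval -0.52 to 0.22, adjusted p = 0.55 by edgeR). Its lowest library held 77 counts (RC48 replicate 1, exact Poisson 95% interval 60.8 to 96.2), whose counting error of 11.4% is of the same order as the spread of the RC48 libraries. In exact two-sided permutation tests on single genes, p was 0.1 for ABCG2, the smallest value that 3 libraries against 3 can give, and between 0.2 and 0.9 for the other 7.

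The order of the transporters within RC48 replicate 1 largely followed their GC content. In that library the log2 ratio to the Control mean was lowest in ABCG2 (-0.73) and ABCC4 (-0.64), intermediate in ABCB1 (-0.46), ABCC2 (-0.20), ABCC5 (-0.07) and ABCC1 (0.03), and highest in ABCC3 (0.69) and ABCC10 (0.96). Across the 8 genes, which share this library and are not independent replicates, Pearson's r between the ratio and GC content was 0.93 (Spearman's rho = 0.98). RC48 replicate 3 had the same tendency over a smaller range (r = 0.73, rho = 0.71). In RC48 replicate 2, the library without the trend, r was -0.61 (rho = -0.57), all 8 ratios were below 0, and they ranged from -0.35 in ABCC1 to -0.016 in ABCB1. After the GC correction, the range over the 8 genes fell from 1.69 to 0.78 in RC48 replicate 1 and from 0.67 to 0.43 in RC48 replicate 3, and was 0.34 before and 0.33 after in RC48 replicate 2. How much of each transporter's difference comes with base composition in these libraries and how much with RC48 was not tested beyond this correction.

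**Figure D3:**
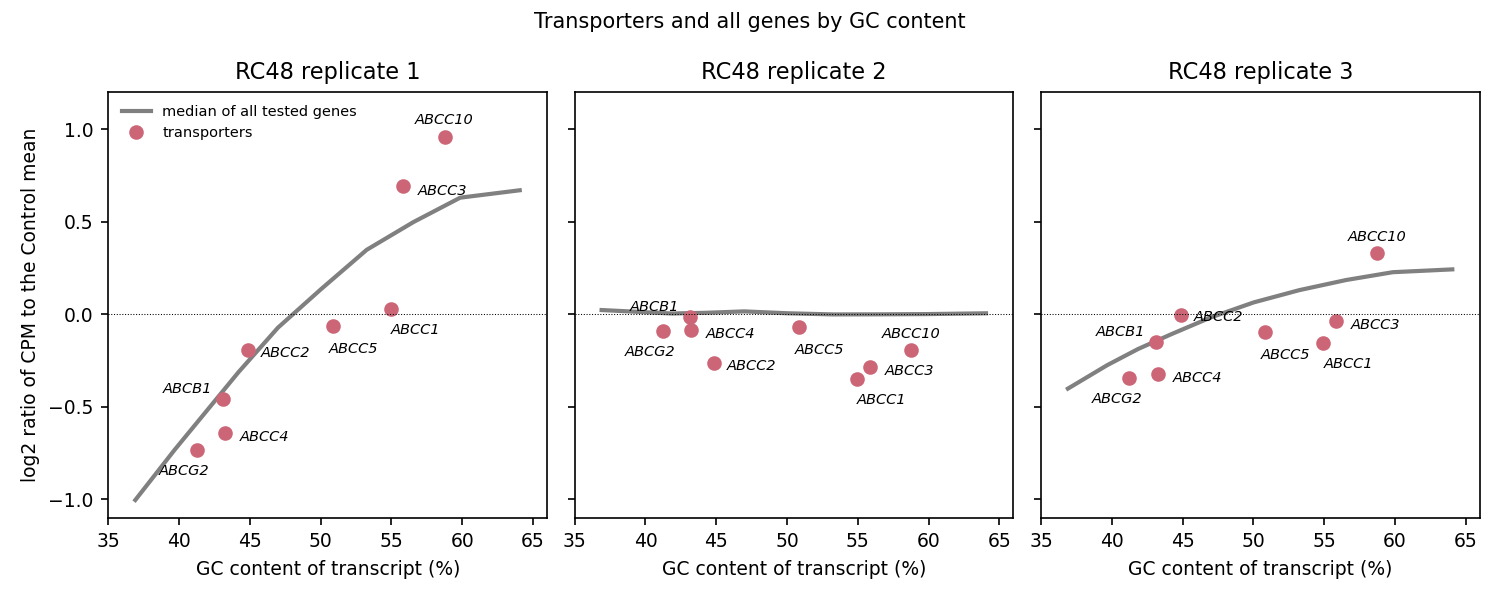
Log2 ratio of CPM in each RC48 library to the Control mean against the GC content of the transcript, for the 8 transporters (points) and as the median of all tested genes by decile of GC content (line). In RC48 replicate 1 the transporters spread from -0.73 (ABCG2) to 0.96 (ABCC10), and in RC48 replicate 2 all 8 lay between -0.35 and -0.016.

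Some members lie near a close relative in the genome. ABCB4, a phospholipid exporter, lies 26990 bases from ABCB1 and had only 32 counts over the Control and 13 over the RC48 libraries, too few to be tested. ABCC6 lies 6512 bases from ABCC1 and was at 1.33 to 2.43 CPM (adjusted p = 0.53 by edgeR). Among 9995 genes with at least 10 CPM, the 3 whose levels over the 6 libraries were most like those of ABCG2 were MARVELD2, DCAF10 and NEIL3, with root mean square differences of 0.018, 0.022 and 0.026 in log2 CPM centred on the Control mean. Their transcripts had GC contents of 43.5%, 38.3% and 41.4%, below the median of 47.0% in decile 5 of the tested genes by GC content. None of these genes was called (adjusted p = 0.27, 0.29 and 0.29 by edgeR), which follows from choosing genes with levels like those of ABCG2.

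Among the other ABC genes, 2 rose. Of 40 listed genes, 26 were tested, 2 were called higher and 0 lower, with a median log2 fold change of 0.26, and background shares were 1.98% called higher and 0.23% called lower. With the GC correction, the median of the list was 0.098, beside -0.0066 over all tested genes. ABCG1 (gene 9619), a cholesterol exporter, was at 8.21, 9.73 and 9.48 CPM in Control and at 24.8, 19 and 16.7 CPM in RC48. The groups were far apart, and ABCG1 rose by a log2 fold change of 1.14 (SE 0.18, adjusted p = 0.023 by edgeR). TAP1 (gene 6890), which carries peptides into the endoplasmic reticulum for MHC class I, rose from 92.3, 92.0 and 89.1 CPM to 174.9, 141.9 and 161.6 CPM (log2 fold change 0.81, SE 0.12, adjusted p = 0.017). Both remained called with the GC correction (0.95 with adjusted p = 0.0043 and 0.55 with adjusted p = 0.012), and both lost the call in fits that omitted any 1 Control library or the third RC48 library (adjusted p up to 0.17 and 0.15). Neither is a drug exporter of the group described here. ABCE1, which recycles ribosomes (log2 fold change -0.78, adjusted p = 0.23), and ABCB10, a mitochondrial transporter (-0.46, adjusted p = 0.30), had the lowest estimates and did not pass.

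**Figure D4:**
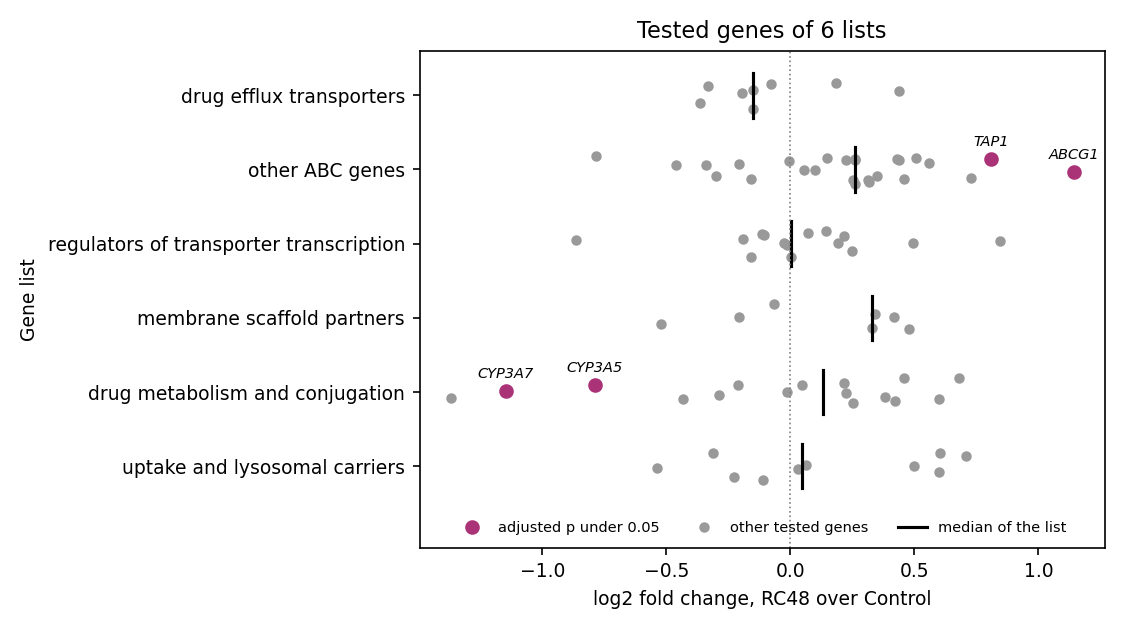
Log2 fold changes (RC48 over Control) of the tested genes in the 8 transporters and 5 related lists, 1 point per gene, with genes of adjusted p under 0.05 named and the list medians as bars. TAP1 and ABCG1 were called higher, CYP3A7 and CYP3A5 were called lower, and no drug efflux transporter was called.

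Genes of drug metabolism work upstream of the exporters by oxidizing or conjugating drugs, and their list here also holds a vault protein (MVP). Of 19 listed genes, 16 were tested, 0 were called higher and 2 lower, with a median log2 fold change of 0.13 (-0.00013 with the GC correction). Over all tested genes, 1.98% were called higher and 0.23% lower. CYP3A5 (gene 1577), an oxidase with broad drug substrates, was at 21.6, 20.8 and 22.0 CPM in Control and fell to 12, 13.4 and 11.9 CPM in RC48 (log2 fold change -0.79, SE 0.13, adjusted p = 0.025 by edgeR). CYP3A7 (gene 1551), its fetal relative, fell from 4.57, 6.54 and 7.06 CPM to 2.55, 2.51 and 3.12 CPM (-1.15, SE 0.22, adjusted p = 0.046). For both genes the groups did not overlap, as for 8 of the 16 tested genes of this list and 31.5% of all tested genes. Both calls were also made with the GC correction (-0.61 and -0.93). They were lost in fits that omitted any 1 Control library or the third RC48 library (adjusted p up to 0.19 and 0.24). The call of CYP3A5 was also lost with a replicate block (adjusted p = 0.057), and that of CYP3A7 with limma on log2(TPM+1) and log2(TPM+0.1) in 6 libraries (adjusted p = 0.058 and 0.060) and with the block and the GC correction (adjusted p = 0.054). The CYP3A genes are close paralogs, and estimated counts can be split between them, so the separate values are uncertain. CYP3A4 had 9 counts in all over Control and 7 over RC48. MVP, the major vault protein, and GSTM4, a glutathione transferase, had positive estimates that did not pass (0.68 with adjusted p = 0.084 and 0.60 with adjusted p = 0.075). Both were called with the GC correction (0.36 and 0.41, adjusted p = 0.031 and 0.029) and by DESeq2 (adjusted p = 0.0093 and 0.0074). Limma on log2(TPM+1) in 6 libraries called GSTM4 (adjusted p = 0.042) but not MVP (adjusted p = 0.059). Neither was called with the block and the GC correction (adjusted p = 0.097 for MVP and 0.073 for GSTM4). The glutathione transferase GSTA1 had a negative estimate (-1.37, adjusted p = 0.18).

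Transcriptional regulators of the transporters and their partners at the membrane had no call by edgeR with all 6 libraries, no replicate block and no GC correction. Of 18 regulators, 15 were tested and 0 were called, with a median log2 fold change of 0.0032 (0.078 with the GC correction). The xenobiotic receptor NR1I2 (PXR), an inducer of ABCB1, was at 0 in Control and had 6 counts over the 3 RC48 libraries. AHR, the aryl hydrocarbon receptor and a regulator of ABCG2, was at 57.8, 60.8 and 67.4 CPM in Control and at 20.3, 46.0 and 35.9 CPM in RC48. Its groups did not overlap, as for 31.5% of all tested genes. The log2 fold change was -0.86 (adjusted p = 0.18 by edgeR), and with the GC correction it was -0.55 and called (adjusted p = 0.026). AHR was called in 8 of the 18 alternatives, DESeq2 (adjusted p = 0.048) and the edgeR fit with a replicate block (adjusted p = 0.041) among them. The 8 also included limma voom, limma in 5 libraries and the fit without RC48 replicate 2. These called 61.4%, 21.6% and 28.3% of all tested genes. KEAP1 had a positive estimate that did not pass (0.49, adjusted p = 0.28), and HIF1A had a negative one (-0.19, adjusted p = 0.60) whose sign changed to 0.19 with the GC correction.

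Of 7 scaffold proteins that hold transporters in the membrane, all 7 were tested and 0 were called, with a median of 0.33 (0.11 with the GC correction). PDZK1 (0.48, adjusted p = 0.34), SLC9A3R2 (0.42, adjusted p = 0.27), RDX (-0.52, adjusted p = 0.30) and EZR (-0.21, adjusted p = 0.31) spanned the list. Of 15 uptake and lysosomal carriers, 10 were tested and 0 were called, with a median of 0.046 (0.16 with the GC correction). The organic anion carrier SLCO3A1 came nearest, from 54.7, 55.3 and 56.9 CPM in Control to 93.1, 78.9 and 81.5 CPM in RC48 without overlap (log2 fold change 0.60, adjusted p = 0.0503 by edgeR), and it was called with the GC correction (0.49, adjusted p = 0.0062). SLCO3A1 was also called by DESeq2 (adjusted p = 7.6e-04), but not by limma on log2(TPM+1) in 6 libraries (adjusted p = 0.067). Estimates were 0.71 for SLC22A4 (adjusted p = 0.26), -0.54 for SLCO4C1 (adjusted p = 0.32) and -0.31 for SLCO1B1 (adjusted p = 0.53).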

How the data were processed

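RNA of SW780 cells was sequenced in 3 Control and 3 RC48 libraries. Reads were cleaned with SOAPnuke, aligned with Bowtie2 and quantified per gene with RSEM by the authors. The submitters' processing notes name hg38, and versions and annotation are not given in the sources used here. The deposited estimated counts are not normalized, and 11.7% to 15.0% of the values of a library are not whole. The deposited TPM, made by the authors for 5 libraries, is scaled for gene length and depth. For RC48 replicate 2, TPM was calculated here, using effective lengths derived from the other libraries, and the same calculation for RC48 replicate 3 differed from the deposited TPM by a median of 0.037 (absolute log2) over 11982 genes. Library totals differed by at most 1.09 times.

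Estimated counts were rounded, filtered with filterByExpr, scaled by TMM, and edgeR's quasi-likelihood test was applied (R 4.3.3, edgeR 4.0.16), with Benjamini-Hochberg adjustment over all 13055 genes and a threshold of 0.05. The 95% intervals used the t distribution with the test's degrees of freedom. The study's own test, limma on log2(TPM+1), was an alternative, as were DESeq2 1.42.0, limma voom (limma 3.58.1) and 15 others, 18 in all. The GC correction was a loess offset (span 0.3) per library on the GC content of the longest GENCODE v29 transcript, known for 99.4% of genes. The edgeR procedure was tested on simulated data with a single dispersion of 0.01 and no GC trend. That simulation does not show how the procedure performs on libraries with such a trend. Permutation tests were exact and two-sided, on log2 CPM. Gene positions came from RefSeq.

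Named were the 8 transporters, and in each related list every called gene and the 2 highest and 2 lowest estimates with a mean of at least 1 CPM in the higher group. For ABCG2, with the smallest p, the 3 genes most like it with at least 10 CPM were added. A gene that this rule took and a coding sequence are not reported here. The transporters, the lists and the alternatives were chosen with earlier results of these data known.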

Additional observations from a re-analysis of the deposited data

How the results depend on the processing

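Of 144 values for the 8 transporters under the 18 alternatives, 134 kept their direction and their side of the threshold. Those that did not were ABCC2 with limma voom (0.019), ABCC3 with the GC correction (-0.092), with the replicate block and the GC correction (-0.10) and without RC48 replicate 1 (-0.16), ABCC5 without Control replicate 3 (0.0078), and the values that became significant, namely ABCC4 (-0.24), ABCC10 (0.38) and ABCG2 (-0.33) with limma voom, and ABCC10 (0.67) and ABCG2 (-0.53) without RC48 replicate 2. The cause was not tested. In fits that each omitted 1 library, log2 fold changes ranged from -0.30 to -0.09 in ABCB1, -0.26 to -0.06 in ABCC1, -0.25 to -0.10 in ABCC2, -0.16 to 0.37 in ABCC3, -0.47 to -0.21 in ABCC4, -0.13 to 0.0078 in ABCC5, 0.084 to 0.67 in ABCC10 and -0.53 to -0.22 in ABCG2.

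The number of genes called, 288, was 676 with DESeq2, 8018 with limma voom, 2854 with limma on log2(TPM+1) in 5 libraries and 221 in 6, 946 with the GC correction, 331 with the replicate block, 622 with the replicate block and the GC correction, and 68 to 3726 when 1 library was left out. Same-numbered libraries did not deviate together (r = -0.0061, -0.12 and 0.012), so the numbers were not taken as pairs. Unlike-numbered libraries gave r between -0.11 and 0.13. With 3 libraries per group and the GC trend among the RC48 libraries, these values cannot exclude pairing. Limma voom called 61.4% of all tested genes. Its calls covered 3 of 8 tested transporters, 15 of 26 other ABC genes and 8 of 15 regulators. They also covered 6 of 7 scaffold partners, 13 of 16 metabolism genes and 5 of 10 carriers. With limma in 5 libraries the counts were 0, 6, 2, 1, 7 and 3, with the GC correction 0, 3, 2, 1, 5 and 1, with the replicate block 0, 2, 1, 0, 1 and 0, with the block and the GC correction 0, 3, 1, 0, 1 and 1, and with DESeq2 0, 2, 1, 0, 4 and 1. Over all tested genes, limma in 5 libraries called 21.6%, the fit with the GC correction 7.25% and DESeq2 4.78%. When 1 library was left out, the list counts ranged from 0 to 2, 0 to 12, 0 to 2, 0 to 1, 0 to 8 and 0 to 3. The highest counts in all 6 lists came without RC48 replicate 2, where 28.3% of all tested genes were called.

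Of 376 values for the other named genes, 300 kept direction and side, 51 became significant, 20 lost significance and 5 changed sign. These were HIF1A with the GC correction (0.19), with the block and the GC correction (0.20) and without RC48 replicate 1 (0.025, with -0.46 as the lowest value when 1 library was omitted), and SLCO1B1 with the GC correction (0.072) and with the block and the GC correction (0.057). Counting error limits ABCC2 and ABCB1 most, at 11.4% and 9.37% in their lowest libraries.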

Other observations

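With the GC correction, a few further genes of the related lists were called by edgeR, and they are named here after their values were seen. RXRA, the partner of several nuclear receptors, fell by 0.42 on the log2 scale (adjusted p = 0.032), from 226.0, 219.9 and 235.6 CPM in Control to 252.7, 185.2 and 195.1 CPM in RC48 before the correction. CAV1, a scaffold of membrane caveolae, was higher by a log2 fold change of 0.38 (adjusted p = 0.033), and its uncorrected levels were 615.4, 642.9 and 623.2 CPM in Control and 797.6, 846.5 and 737.7 CPM in RC48. ABCA10, a lipid transporter of the ABCA family, was higher by 0.58 (adjusted p = 0.031), with 13.2, 15.6 and 13.8 CPM in Control and 9.65, 22.2 and 17.9 CPM in RC48. GSTM3, a glutathione transferase, was higher by 0.48 (adjusted p = 0.043), with 159.2, 153.3 and 122.2 CPM in Control and 179.2, 199.1 and 203.5 CPM in RC48. CAV1 and GSTM3 did not overlap between the groups before the correction, whereas RXRA and ABCA10 did.

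Among the 36 markers of cell types, KRT20, a keratin of luminal urothelium, was called lower and FAP, a fibroblast marker, was called higher without the correction, and none of the 6 tested leukocyte and 3 tested endothelial markers was called. Of the 10 urothelial markers, 6 had positive and 4 negative estimates, with a median log2 fold change of 0.052 (-0.12 with the GC correction). Of the 4 tested fibroblast markers, 3 had positive estimates and 1 a negative one. The 6 leukocyte markers all had positive estimates, with a median log2 fold change of 0.59. With the GC correction, 2 endothelial markers, PECAM1 and VWF, were called lower (-0.50 and -0.81, adjusted p = 0.019 and 0.020), and the fibroblast marker LUM was called lower as well (-0.45, adjusted p = 0.019). The fibroblast markers summed to 447.5 to 478.1 CPM in Control and 452.2 to 568.2 CPM in RC48, and the endothelial markers to 27.9 to 29.7 and 18.4 to 25 CPM.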
